A study of Mus musculus with 159 samples.

Results

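Liver transcripts were compared between mice that drank ethanol on alternate days (Chronic Intermittent, CI) and mice that drank only water. The arrays were chosen by their labels alone. They were the 10 liver arrays of CI-treated mice and the 10 of CI-control mice, 20 of the 159 arrays of the series. All 20 mice were C57BL/6J females with a labelled age of 2.5 months. The text of the study gives a somewhat older age at the start of the experiment, and tissue was taken weeks after that. The treated mice chose between a bottle of 20% ethanol and a bottle of water every other day and had only water on the days between, until their total intake matched that of mice given ethanol continuously (Chronic). The control mice had only water throughout, and a further treated mouse was left out at random before arrays were run. Tissue came from the lower liver lobes in the light phase, about a day after the last ethanol, so the values describe the liver after the drink had been withdrawn and not during intake. Each array held the RNA of 1 mouse. In 3 further liver sets, each of 10 treated mice and 10 controls of their own, treated mice had other regimens. These were continuous ethanol (Chronic), brief daily access to ethanol (drinking in the dark, DID) or injections of lipopolysaccharide (LPS), a component of bacterial walls. Controls had water, or saline injections in the LPS set. These mice were also C57BL/6J females with a labelled age of 2.5 months, and the ethanol was 20%. By the text of the study, however, the DID and LPS mice started younger than the CI and Chronic mice. Prefrontal cortex arrays of 10 CI-treated and 10 CI-control mice were used as well. DID mice were killed in their dark phase and the mice of the other sets in the light phase, the LPS mice a week after their last injection.

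The values are log2 intensities of Illumina bead arrays, and a difference of 1 is about a doubling of intensity on the array. Values were held for 9561 probes. They ran from 7.74 to 15.61, the medians of the 20 arrays from 8.63 to 8.64, and the mean correlation of each array with its 19 fellows from 0.987 to 0.992. Of the single values 0.576% were blank, since outlying values had been removed, and 1076 probes had a blank on at least 1 array. The first principal component held 23.9% of the variance and the second 11.9%. The labelled tissue was borne out by markers of hepatocytes, the cells that make most plasma proteins. Of 10 such genes 9 were measured, with transferrin (Trf), transthyretin (Ttr), fetuin A (Ahsg) and apolipoprotein A1 (Apoa1) at means above 15 in water mice, and none differed between the groups at an unadjusted p under 0.05. Bulk tissue was measured, in which fewer cells of a type and less RNA per cell cannot be told apart.

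The liver oxidizes ethanol in the cytosol, mitochondria, peroxisomes and endoplasmic reticulum. It is also the main site of cholesterol and bile acid synthesis, of fatty acid oxidation and of drug metabolism by cytochromes P450. Many of its transcripts cycle over the day under the circadian clock, in which CLOCK and BMAL1 drive genes through E-boxes while PER, CRY and CIART proteins repress them, and outputs such as DBP and USP2 carry the rhythm onward.

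A linear model was fitted to every probe with limma, and a probe was said to pass where its p, adjusted by Benjamini and Hochberg over all 9561 probes, was under 0.05. Of the 9561 probes 22 passed (0.230%), 14 higher in CI mice (0.146%) and 8 lower (0.0837%). They belonged to 19 named genes, and 2 had no gene symbol. At an unadjusted p under 0.05, here called differentially expressed (DE), there were 1001 probes (10.5%), 500 higher (5.23%) and 501 lower (5.24%). The changes that passed were small, from 1.08-fold to 1.89-fold. Apart from Ppp1ca, no probe had groups that did not overlap (0.0105% of the 9561). The count depended on single mice. It was 6 without water mouse 2, CI mouse 4 or CI mouse 8, and 89 without CI mouse 2. Usp2, Clpx, Cldn2, Hsd3b7, Ppp1ca and Gstp1 passed whichever mouse was left out. Of the 22 probes 11 had a blank value, where 1076 of all 9561 did. The blank was that of CI mouse 2 for Clpx, Ddc, Denn2b, Hsd17b11 and Gpat4, and of water mouse 8 for Ppp1ca. Leaving out mice cannot show the weight of a value already blanked.

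**Figure D1:**
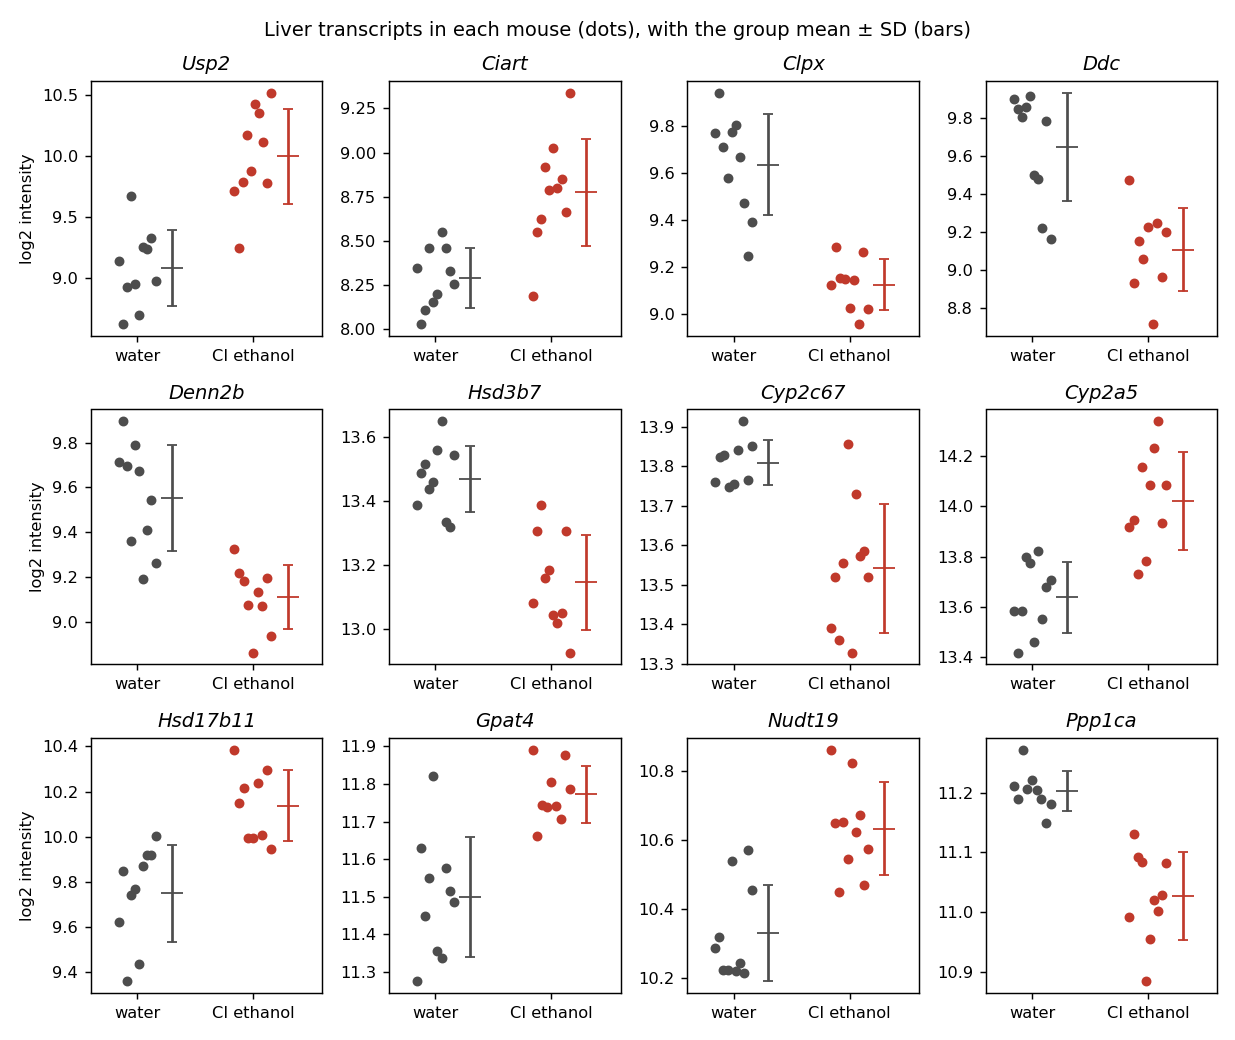
Log2 intensity of 12 genes that passed, in each of the 10 water mice (grey) and 10 CI mice (red), with bars for the group mean ± SD; a missing dot is a blank value. Ppp1ca is the 1 gene whose groups do not overlap, and for Usp2 9 of the 10 CI mice lie above every water mouse.

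Of the genes that passed, the largest change was that of Usp2, a ubiquitin-specific protease whose liver transcript is a well known output of the clock. In water mice it ran from 8.62 to 9.67 with a median of 9.06, and in CI mice from 9.25 to 10.52 with a median of 9.99. All but 1 CI mouse lay above every water mouse. Usp2 rose by 0.92 ± 0.15 (SE), or 1.89-fold (adjusted p = 0.0105). Ciart, a repressor that binds the CLOCK and BMAL1 pair, rose too. It ran from 8.03 to 8.55 with a median of 8.29 in water mice and from 8.19 to 9.34 with a median of 8.79 in CI mice, and 8 of 10 CI mice lay above the water range. The change was 0.48 ± 0.10, or 1.40-fold (adjusted p = 0.0479), and a second Ciart probe showed 0.55 ± 0.14 without passing (adjusted p = 0.0948). Ciart stood at the edge of the threshold and passed in 3 of the 20 fits that left out a mouse, where its adjusted p reached 0.0902.

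Apart from Usp2 and Ciart no clock gene passed. The gene lists, here and below, were chosen with earlier results of these data known. Their shares beside those of all probes are therefore descriptions and no test. Of 13 repressors 10 were measured, Ciart among them, of which 8 had higher means in CI mice (50.2% of all probes did) and 3 were DE, all higher (30.0% against 5.23%). Besides Ciart these were Per1 and Per2. Per1, a core repressor that also responds to glucocorticoids, ran from 8.00 to 8.89 in water mice (median 8.54) and from 8.60 to 9.09 in CI mice (median 8.82), a difference of 0.33 ± 0.10 (adjusted p = 0.178). Its partner Per2 differed by 0.33 ± 0.13 (adjusted p = 0.334), with 3 CI mice above the water range of 8.36 to 9.37. Nr1d1, which encodes the receptor REV-ERB alpha, had a lower mean, by 0.12 ± 0.08 (adjusted p = 0.662).

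Of 18 clock outputs 13 were measured, Usp2 among them. All 13 had higher means in CI mice and 5 were DE, against 50.2% of all probes with a higher mean and 5.23% DE and higher. The smallest of the 13, Nfil3 at 0.00 ± 0.12 and Lpin1 at 0.02 ± 0.09, changed sign when single mice were left out, as did the repressor Bhlhe40. The median over the outputs was 0.23, beside 0.00 over all probes. Dbp, a transcription factor that binds D-boxes, ran from 12.42 to 12.99 in 9 water mice (median 12.79) and from 12.70 to 13.50 in 10 CI mice (median 13.06). The difference was 0.36 ± 0.09 (adjusted p = 0.107), and 6 of 10 CI mice exceeded the water range. The related factor Tef (0.22 ± 0.08), the NAD salvage enzyme Nampt (0.23 ± 0.06) and liver glycogen synthase Gys2 (0.22 ± 0.08) were DE, with adjusted p of 0.31, 0.124 and 0.306. Of 7 activators 2 were measured and neither was DE, Clock at -0.13 ± 0.08 and Rora at 0.05 ± 0.04.

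**Figure D2:**
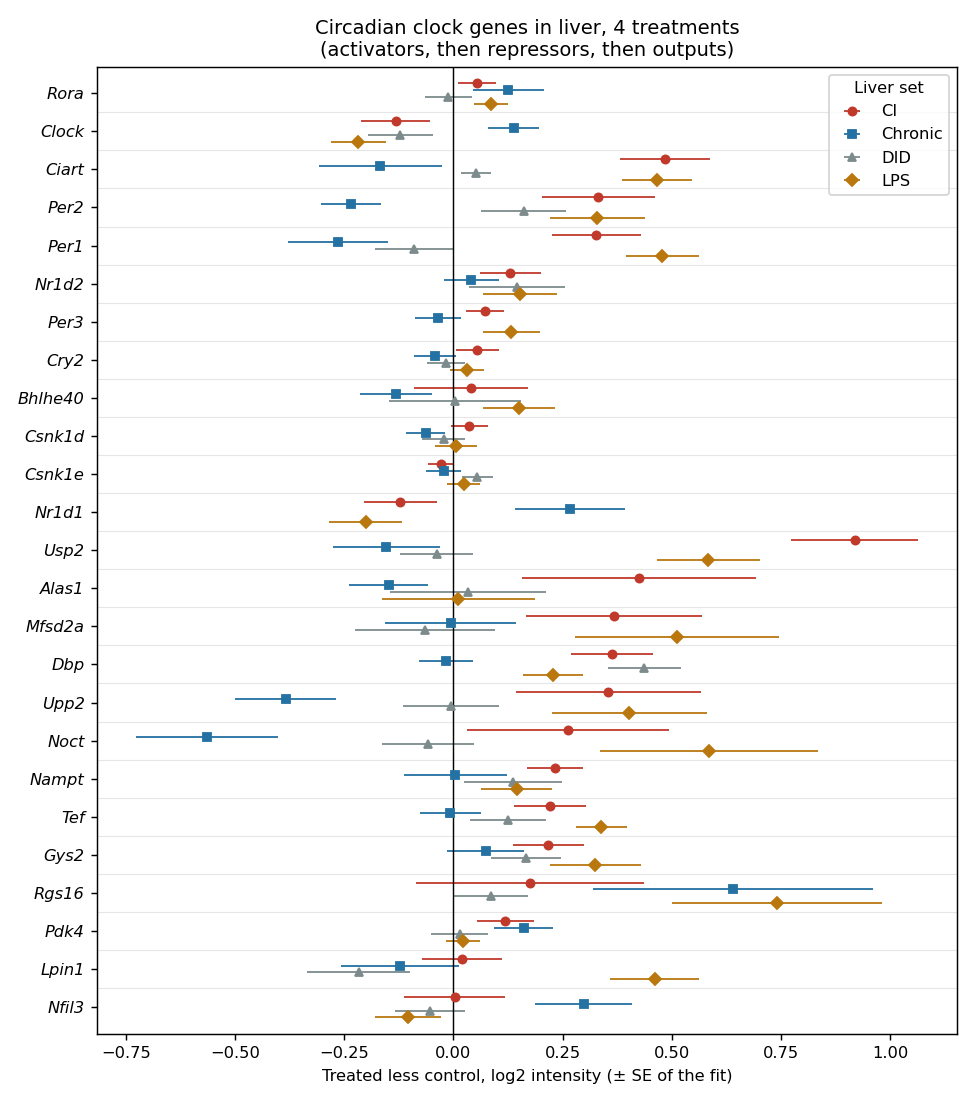
Treated less control difference in log2 intensity (± SE of the fit) of the 25 measured clock genes in the CI, Chronic, DID and LPS livers, from activators at the top through repressors to outputs; Per3 and Nr1d1 had no values in DID. The CI and LPS points of Usp2, Ciart, Per1 and Per2 lie to the right of 0 and the Chronic points to its left.

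Promoter sequence was looked at for these genes because E-boxes are where the clock acts. The 250 bases before each start in RefSeq's promoter table (GRCm38.p6, 32851 promoters) were searched on both strands for the E-box CACGTG, which 6.02% of all promoters held, the D-box TTATGTAA (0.819%) and the site AGGTCA of ROR and REV-ERB receptors (14.0%). The 7 repressors found in the table had 11 starts, of which 2 held CACGTG, in Ciart and Per1. AGGTCA was held by 2 of the 11, in Nr1d2 and Per1, and TTATGTAA by 1, in Per3. The 12 outputs found had 15 starts, of which 2 held CACGTG, both in Tef, 5 held AGGTCA, in Lpin1, Mfsd2a, Nampt, Nfil3 and Upp2, and 0 held TTATGTAA. No match was found for Usp2 or Dbp in this window, where a gene absent from the promoter table would also show none. Of the 19 genes that passed 15 were found, of which Ciart held CACGTG and Ddc and Uqcc1 held AGGTCA. The stretches of Ciart and Per1 are shown because both carry the E-box, with the letters of each match in capitals. Ciart held 3 copies of CACGTG (chr3:95882229-95882478, minus strand). Per1, at the first of its 2 starts, held 1 copy and a reverse match to AGGTCA, which reads TGACCT (chr11:69098699-69098948, plus strand). A match is a description of the letters and no evidence of binding.
Ciart: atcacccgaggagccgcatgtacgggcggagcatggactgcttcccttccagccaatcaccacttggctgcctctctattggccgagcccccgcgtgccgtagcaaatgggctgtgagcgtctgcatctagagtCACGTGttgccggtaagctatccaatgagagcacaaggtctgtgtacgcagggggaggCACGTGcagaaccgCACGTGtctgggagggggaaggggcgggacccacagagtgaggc
Per1: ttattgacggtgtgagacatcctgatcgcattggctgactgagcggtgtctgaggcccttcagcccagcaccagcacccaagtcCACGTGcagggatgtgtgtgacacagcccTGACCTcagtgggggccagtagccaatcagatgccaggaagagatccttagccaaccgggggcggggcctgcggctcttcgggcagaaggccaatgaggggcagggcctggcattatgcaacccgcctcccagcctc

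Genes of mitochondria and redox chemistry that passed went in both directions. They are set side by side here by their known roles and form no list that was tested. Clpx, the unfoldase that feeds proteins to the ClpP protease of the mitochondrial matrix, had the smallest adjusted p of all probes. It ran from 9.25 to 9.94 in 10 water mice (median 9.69). In 9 CI mice it ran from 8.96 to 9.28 (median 9.15), with 7 below the water range and CI mouse 2 blank. Clpx fell by 0.51 ± 0.07, or 1.42-fold (adjusted p = 0.00898), and its second probe fell short of the threshold at -0.47 ± 0.10 (adjusted p = 0.05005). Uqcc1, an assembly factor of respiratory complex III, rose by 0.19 ± 0.04 (adjusted p = 0.0316). Ppargc1b, a coactivator of mitochondrial and lipid genes, rose by 0.20 ± 0.04 (adjusted p = 0.0416), from a median of 8.46 in 9 water mice to 8.60 in CI mice. Glrx, a glutaredoxin that reduces protein disulfides with glutathione, rose from a median of 10.95 to 11.17, a change of 0.21 ± 0.04 (adjusted p = 0.0316), and 9 of 10 CI mice exceeded the water range. Coq10b, which encodes a coenzyme Q binding protein of mitochondria, missed the threshold with 2 probes of like size, 0.59 ± 0.13 on both (adjusted p = 0.0522 and 0.0575).

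Glutathione transferase Gstp1 passed on a dim probe. It ran from 7.95 to 8.09 in 9 water mice and from 8.09 to 8.34 in CI mice, near the lowest values of the arrays, and rose by 0.18 ± 0.03 (adjusted p = 0.0152). Brighter Gstp1 probes showed 0.38 ± 0.13 and 0.44 ± 0.14 without passing (adjusted p = 0.274 and 0.186). Of 38 glutathione and antioxidant genes 32 were measured, each by its brightest probe, of which 7 were DE and higher and Gstm2 (-0.25 ± 0.12) was DE and lower, 25.0% of the list against 10.5% of all probes. Mitochondrial superoxide dismutase Sod2 (0.14 ± 0.04), Gsta4 (0.30 ± 0.11) and Gsto1 (0.18 ± 0.07) were among the higher ones, and the median was 0.06.

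Genes of drug metabolism that passed went in both directions. Cyp2a5, the coumarin hydroxylase of mouse liver, rose on 2 probes by 0.38 ± 0.07 and 0.43 ± 0.08 (adjusted p = 0.0273 and 0.0333). On the first of them, water mice ran from 13.42 to 13.82 (median 13.63) and CI mice from 13.73 to 14.34 (median 14.02), and 8 of 10 CI mice lay above the water range. The 2 probes passed in 12 and 8 of the 20 fits that left out a mouse. The brightest Cyp2a5 probe showed 0.28 ± 0.06 (adjusted p = 0.0575). Cyp2a4 is nearly identical in sequence, so the probes may not tell the pair apart. Cyp2c67 fell by 0.27 ± 0.05 (adjusted p = 0.0416), from a median of 13.82 in 9 water mice to 13.54, with the same reservation for its close relatives in the Cyp2c cluster. Over the list of P450 enzymes and their receptors, 24 of 37 genes were measured and 3 were DE, all higher, namely Cyp2a5, Cyp3a25 (0.23 ± 0.07) and the xenobiotic receptor Nr1i2 (0.19 ± 0.08). The list thus had 12.5% DE, close to the 10.5% of all probes. No gene of ethanol oxidation passed. Of 14 genes 13 were measured and 2 were DE (15.4% against 10.5%), with the fatty aldehyde dehydrogenase Aldh3a2 (0.30 ± 0.10) DE and higher, Adh4 (-0.21 ± 0.09) DE and lower, and Adh1 (0.08 ± 0.04) and Aldh2 (0.06 ± 0.03) not DE.

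Several lipid genes passed. Hsd17b11, a hydroxysteroid dehydrogenase of lipid droplets, rose by 0.39 ± 0.08 (adjusted p = 0.0479), from a median of 9.81 to 10.15 in 9 CI mice. Gpat4, the acyltransferase that starts triglyceride synthesis in the endoplasmic reticulum, rose by 0.27 ± 0.06 (adjusted p = 0.0416). Of 9 CI mice 2 exceeded the water range of 11.28 to 11.82. The top of that range was water mouse 5, and the next water mouse read 11.63, below the lowest CI mouse at 11.66. CI mouse 2 was blank, and Gpat4 passed in only 5 of the 20 fits that left out a mouse. Nudt19, a peroxisomal hydrolase of coenzyme A, rose by 0.30 ± 0.06 (adjusted p = 0.0318), from a median of 10.27 to 10.64. Of the 17 droplet genes 11 were measured, of which 6 had lower means and 5 higher, with a median of -0.0018. The 3 DE genes were all higher (27.3% against 5.23% of all probes), namely Hsd17b11, the triglyceride lipase Pnpla2 (0.26 ± 0.08, adjusted p = 0.159) and Fitm2 (0.27 ± 0.12). The droplet coat gene Plin2 was at -0.09 ± 0.14.

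Among genes of bile acids and sterol export, Hsd3b7, which acts early in bile acid synthesis, fell by 0.32 ± 0.05, or 1.25-fold (adjusted p = 0.0138). It ran from 13.32 to 13.65 in water mice (median 13.47) and from 12.92 to 13.39 in CI mice (median 13.12), and 9 of 10 CI mice lay below the water range. A second Hsd3b7 probe showed -0.30 ± 0.07 (adjusted p = 0.0575). The bile acid list did not include Hsd3b7. Of its 18 genes 16 were measured, with 3 DE and higher and 2 DE and lower, 31.25% against 10.5% of all probes. Cyp8b1, the sterol 12-alpha-hydroxylase, was lower by 0.98 ± 0.35 (adjusted p = 0.29). It spread widely, from 11.53 to 13.60 in water mice and from 9.23 to 13.44 in CI mice. The canalicular sterol exporters Abcg5 (0.36 ± 0.11) and Abcg8 (0.36 ± 0.10) were DE and higher, each with 7 of 10 CI mice above the water range (adjusted p = 0.158 and 0.131). Cyp7a1, the rate-limiting enzyme of bile acid synthesis, was at -0.28 ± 0.32.

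Cholesterol synthesis had the largest shift of the 22 pathway lists, although no gene of it passed. Of 25 genes 18 were measured, all 18 had lower means in CI mice, and 14 were DE, which is 77.8% of the list against 5.24% of all probes DE and lower. Since the list was chosen with earlier results of these data known, this share is a description and no test. The median was -0.38 and the adjusted p of the 18 ranged from 0.124 to 0.659. Hmgcs1, the synthase before HMG-CoA reductase, ran from 14.21 to 15.22 in water mice (median 14.56) and from 13.49 to 15.16 in CI mice (median 13.90), a difference of -0.64 ± 0.19 (adjusted p = 0.172). Squalene epoxidase Sqle differed by -0.70 ± 0.23, the sterol oxidase Msmo1 by -0.65 ± 0.19 and the isomerase Idi1 by -0.38 ± 0.11, with 6, 8 and 7 of 10 CI mice below every water mouse. The regulators were at the small end, with the transcription factor Srebf2 at -0.14 ± 0.06 and its retention factor Insig1 at -0.12 ± 0.06.

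These 18 genes moved together from mouse to mouse, so their counts are not separate observations. With the group means removed, the mean correlation over the 153 pairs of genes was 0.658 across the 20 arrays, and 152 pairs were above 0. Arrays share normalization and tissue sampling, and this is a description with no test. The mean over the 18 genes, taken less the water mean, ran from -0.29 to 0.41 in water mice and from -0.67 to 0.28 in CI mice, and 7 of 10 CI mice lay below the lowest water mouse. CI mouse 2, at 0.28, was the only CI mouse above 0, and water mice 1 and 3 were the highest of all at 0.41 and 0.36. When single mice were left out, the number of DE genes lay between 10 and 16 and the median between -0.45 and -0.31.

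**Figure D3:**
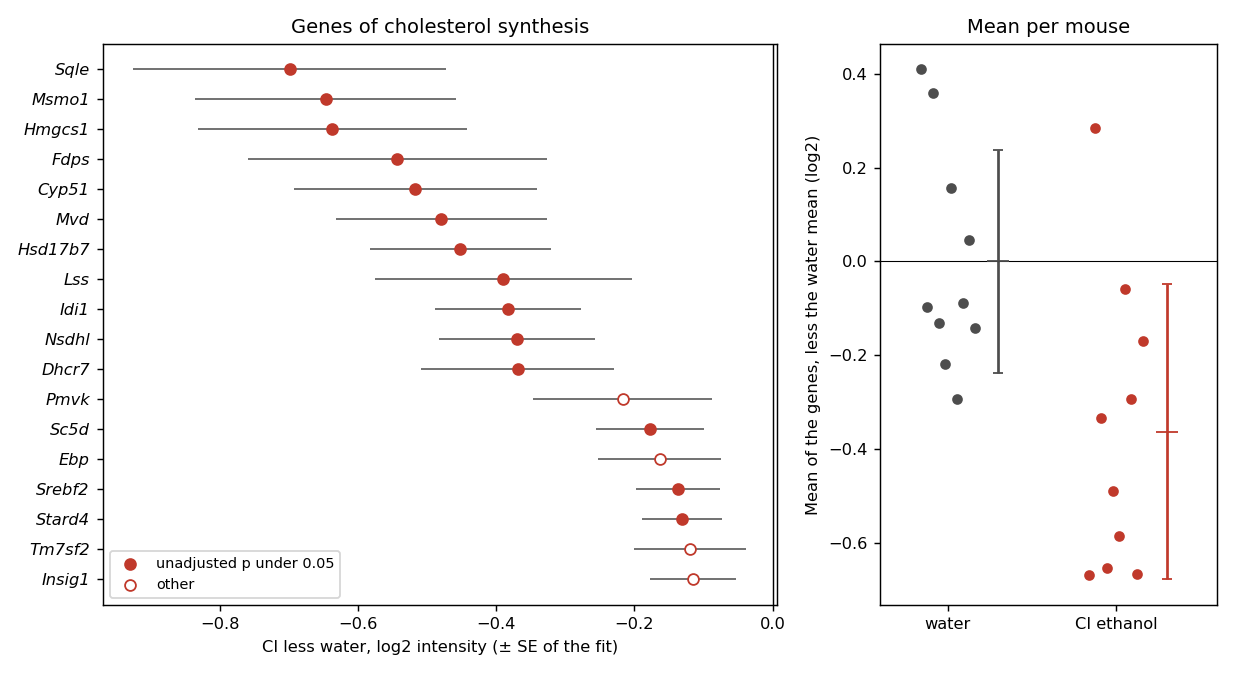
Left, the CI less water difference in log2 intensity (± SE of the fit) of the 18 measured genes of cholesterol synthesis, filled where the unadjusted p was under 0.05. Right, the mean of these genes in each mouse less the water mean, with bars for the group mean ± SD; the CI mice reach down to -0.67 and 1 of them stands at 0.28.

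The promoters of these genes were searched in the same window. The 15 genes found had 18 starts, and TCACNCCAC, a form of the sterol response element that SREBP binds, was held by 1 of them, in Hmgcs1, against 1.05% of all promoters. This motif was added after the values had been seen. The stretch of Hmgcs1 is shown as the gene with a large difference that carries it, with that match in capitals (chr13:119690101-119690350, plus strand). It also holds a reverse match to AGGTCA near its first base, left in lower case. CACGTG was held by 4 of the 18 starts, in Dhcr7, Hsd17b7, Insig1 and Sc5d, AGGTCA by 5, in Dhcr7, Hmgcs1 and Insig1, and TTATGTAA by 0.
Hmgcs1: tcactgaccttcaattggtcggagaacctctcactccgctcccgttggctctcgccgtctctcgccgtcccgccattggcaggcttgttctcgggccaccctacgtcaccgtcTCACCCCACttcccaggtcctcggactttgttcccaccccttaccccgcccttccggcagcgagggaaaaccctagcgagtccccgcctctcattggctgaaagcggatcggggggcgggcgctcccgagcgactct

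Fatty acid oxidation leaned the other way by less. Of 36 genes 28 were measured, 26 had higher means in CI mice (50.2% of all probes did), 7 were DE and higher (25.0% against 5.23%), and none was DE and lower. The median was 0.11. These genes also moved together, with a mean correlation of 0.436 over 378 pairs after group means were removed, so the counts are not separate observations. Peroxisomal thiolase Acaa1b, a target of the receptor PPAR alpha, ran from 14.27 to 14.71 in water mice (median 14.41) and from 14.42 to 15.11 in CI mice (median 14.81), a difference of 0.35 ± 0.09 (adjusted p = 0.109). The peroxisomal genes Acot3 (0.54 ± 0.19) and Ehhadh (0.29 ± 0.11) and the mitochondrial dehydrogenase Acads (0.14 ± 0.06) were DE too. Of 22 genes of fatty acid synthesis 19 were measured and Me1, which makes NADPH, was the 1 DE gene (0.25 ± 0.11).

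**Figure D4:**
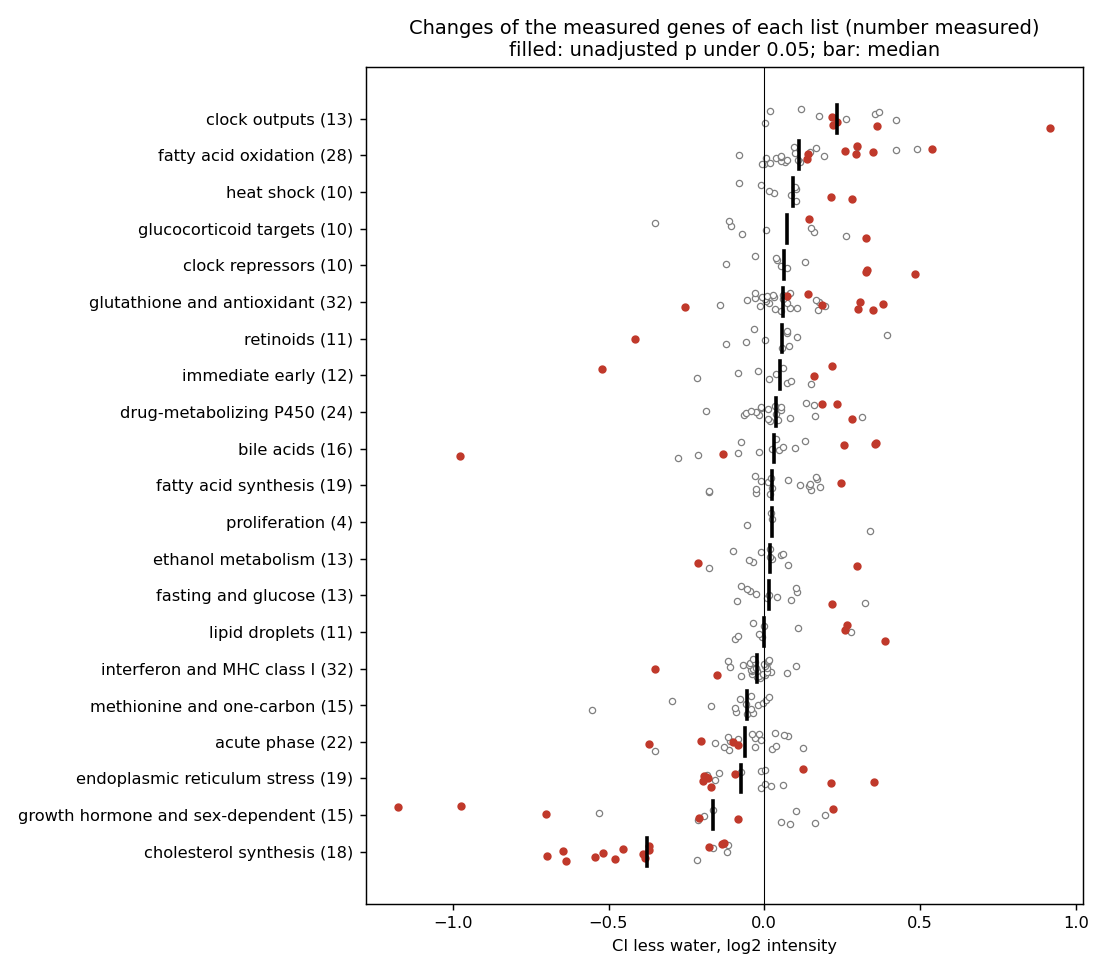
CI less water difference in log2 intensity of every measured gene of the 21 pathway lists with at least 3 measured genes (number in brackets), filled where the unadjusted p was under 0.05, with a bar at the median. The medians run from -0.38 for cholesterol synthesis to 0.23 for the clock outputs.

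Growth hormone and sex-dependent genes leaned lower and spread widely between single mice. Of 23 genes 15 were measured, 5 were DE and lower and Cux2, a female-biased repressor, was DE and higher (0.22 ± 0.09), so that 40.0% were DE against 10.5% of all probes. The median was -0.17. Igf1, the hormone that growth hormone induces in liver, ran from 12.70 to 13.12 in water mice (median 12.86) and from 12.40 to 12.83 in CI mice (median 12.68), a difference of -0.21 ± 0.06 (adjusted p = 0.124). The feedback inhibitor Socs2 differed by -0.70 ± 0.19 (adjusted p = 0.124), with values from 9.72 to 11.34 in CI mice. A1bg, whose transcript is female-biased in mouse liver, differed by -1.17 ± 0.41 (adjusted p = 0.266) but spread widely within each group, from 10.35 to 13.33 in water mice and from 8.61 to 11.40 in CI mice. Serpina1e differed by -0.97 ± 0.43 (adjusted p = 0.417).

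Genes of endoplasmic reticulum stress divided. Of 26 genes 19 were measured, with 3 DE and higher and 6 DE and lower, 47.4% of the list in all against 10.5% of all probes. The lower ones were chaperones and folding enzymes of the lumen, such as Pdia6 (-0.19 ± 0.05, adjusted p = 0.0894), Dnajc3 (-0.20 ± 0.06), Hsp90b1 (-0.17 ± 0.07) and Calr (-0.19 ± 0.09). The higher ones were Herpud1 (0.21 ± 0.07, adjusted p = 0.201), which acts in the removal of misfolded proteins, the cochaperone Dnajb9 (0.35 ± 0.13) and the phosphatase subunit Ppp1r15a (0.12 ± 0.04). Hspa5, a lumenal chaperone widely used as a marker of this stress, was at -0.01 ± 0.04 and Ddit3 at 0.02 ± 0.03.

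No inflammatory gene of the lists passed. Of 28 acute phase genes 22 were measured, 4 were DE and lower (18.2% against 5.24% of all probes) and none DE and higher. The lower ones included serum amyloid P component Apcs (-0.37 ± 0.11, adjusted p = 0.158), Itih3 (-0.20 ± 0.08) and fibrinogen Fga (-0.10 ± 0.04). In the list of interferon responses and MHC class I, with 32 of 40 genes measured, the 2 DE genes (6.25% against 10.5%) were lower, Ifi47 (-0.35 ± 0.11) and Isg15 (-0.15 ± 0.06). Among the 10 measured Kupffer cell genes 8 had higher means, Timd4 (0.10 ± 0.05) was the 1 DE gene (10.0%), and the mean of the list per mouse ran from -0.41 to 0.21 in water mice and from -0.58 to 0.29 in CI mice. Neutrophil and lymphocyte genes were mostly not measured (2 of 11 and 3 of 15), and none was DE.

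No marker of another cell type passed, and shares of DE markers are to be read against 10.5% of all probes. None of 7 periportal genes, and 1 of 9 pericentral genes, Rgn (-0.14 ± 0.06), was DE. Of 12 sinusoidal endothelial genes Mrc1 (0.12 ± 0.04) was DE and of 7 stellate cell and fibroblast genes Col3a1 (-0.11 ± 0.05). The 3 blood genes measured, with Hbb-bt at -0.25 ± 0.13, were not DE. Both measured genes of pancreatic acinar cells (of 10) were DE and lower, Amy2a5 at -0.20 ± 0.07 and Cela2a at -0.10 ± 0.04, with a list mean per mouse from -0.17 to 0.10 in water mice and from -0.35 to 0.01 in CI mice. The part of these cells in the results above was not tested. In the remaining lists the DE genes were 2 of 10 for heat shock (20.0%), 2 of 10 for glucocorticoid targets (20.0%), 3 of 12 for immediate early genes (25.0%), 1 of 13 for fasting and glucose, 1 of 11 for retinoids (Rdh11, -0.42 ± 0.17), 0 of 15 for methionine and one-carbon genes and 0 of 4 for proliferation.

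The rest of the genes that passed belong to no list. Ddc, the aromatic amino acid decarboxylase, fell by 0.54 ± 0.11, or 1.46-fold (adjusted p = 0.0416), from a median of 9.80 to 9.15 in 9 CI mice, of which 5 lay below the water range. Denn2b, a DENN domain protein of membrane traffic, fell by 0.44 ± 0.08 (adjusted p = 0.0318). Cldn2, a tight junction protein that forms pores for cations and water, fell by 0.25 ± 0.04 (adjusted p = 0.0105), and 8 of 9 CI mice lay below the water range of 10.08 to 10.35. Ppp1ca, a catalytic subunit of protein phosphatase 1, fell by 0.18 ± 0.03 (adjusted p = 0.0138), with values from 11.15 to 11.27 in 9 water mice and from 10.88 to 11.13 in CI mice. Its other probes, which share its direction, were at -0.15 ± 0.05 and -0.14 ± 0.04 and did not pass. Lrp4, a receptor related to the LDL receptor, rose by 0.29 ± 0.06 and the lysosomal sulfatase Arsg fell by 0.12 ± 0.02 (adjusted p = 0.0416 for both). The probes without a symbol, ILMN_2791272 and ILMN_2660663, rose by 0.42 ± 0.08 and 0.26 ± 0.05.

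The CI change was then set beside the changes of the other liver treatments, each against its own controls. Of the 22 probes that passed in CI liver, 22 were measured in Chronic liver, where 11 had the same sign, 3 were DE (12.1% of all probes there, 6.31% higher and 5.80% lower) and 0 passed (1.50% of all). In DID liver 21 were measured, 18 had the same sign, 6 were DE (5.19% of all, 2.99% higher and 2.20% lower) and 0 passed (0.0224% of all). In LPS liver 22 were measured, 20 had the same sign, 10 were DE (11.6% of all, 6.21% higher and 5.38% lower), and 3 passed (0.555% of all), Ciart at 0.47 ± 0.08, Usp2 at 0.58 ± 0.12 and Ddc at -0.59 ± 0.14. In the prefrontal cortex of CI mice 16 were measured and Ciart was the 1 DE probe (0.18, unadjusted p = 0.0103), where 0 of all 11269 probes passed in limma (0.00%) and 587 were DE (5.21%, 2.84% higher and 2.37% lower).

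The difference between treatments was tested itself, over all 80 liver arrays. The CI experiment ran longer than the Chronic one, so drinking schedule and length of the experiment cannot be told apart. The CI change differed from the Chronic change for 17 of 9114 probes (0.187%, adjusted p under 0.05), 9 higher and 8 lower in CI. Usp2 led them, at 0.92 ± 0.15 in CI and -0.15 ± 0.12 in Chronic liver, a difference of 1.07 ± 0.18 (adjusted p = 5.82e-04). Ciart differed by 0.65 ± 0.15 (adjusted p = 0.0293), with -0.17 ± 0.14 in Chronic liver, and Clpx by -0.63 ± 0.15 (adjusted p = 0.0382), with 0.12 ± 0.09. ILMN_2791272 was higher in CI and lower in Chronic liver, at 0.42 ± 0.08 and -0.34 ± 0.09. Coq10b (0.68 ± 0.16) and the vitamin transporter Slc5a6 (0.41 ± 0.10), which missed the threshold in CI liver, differed from Chronic as well (adjusted p = 0.0348 for both). For others the larger change was in Chronic liver, such as Pparg, a nuclear receptor of fat storage, at -0.01 ± 0.06 in CI and 0.40 ± 0.06 in Chronic, the fructose kinase Khk, at -0.07 ± 0.08 and 0.52 ± 0.10, and the transcription factor Olig1, at 0.10 ± 0.04 and 0.55 ± 0.07. Per1 and Per2, at -0.26 ± 0.12 and -0.24 ± 0.07 in Chronic liver, differed from CI by 0.59 and 0.57 without passing (adjusted p = 0.0546 and 0.0945).

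Against DID the 1 probe of 8797 that differed (0.0114%) was that of Usp2, by 0.96 ± 0.18 (adjusted p = 0.0103), its change in DID liver being -0.04 ± 0.08. The DID livers were taken in the other phase of the light cycle, from mice that started younger and drank less ethanol in total. Drinking pattern, total intake, age and time of day therefore cannot be told apart here. Dbp, at 0.44 ± 0.08 in DID and 0.36 ± 0.09 in CI liver, did not differ beyond its error (-0.07 ± 0.11). Against LPS 7 of 9168 probes differed (0.0764%), all lower in CI. They included the neutrophil gene S100a8, at -0.07 ± 0.08 in CI and 1.02 ± 0.22 in LPS liver, the endothelial receptor Lyve1, at 0.00 ± 0.06 and 0.53 ± 0.07, and 4 genes of histone H4. None of the genes that passed in CI liver was among them. For Usp2 the difference from LPS was not past the threshold. The LPS mice also started younger than the CI mice, so treatment and age cannot be told apart in this comparison.

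**Figure D5:**
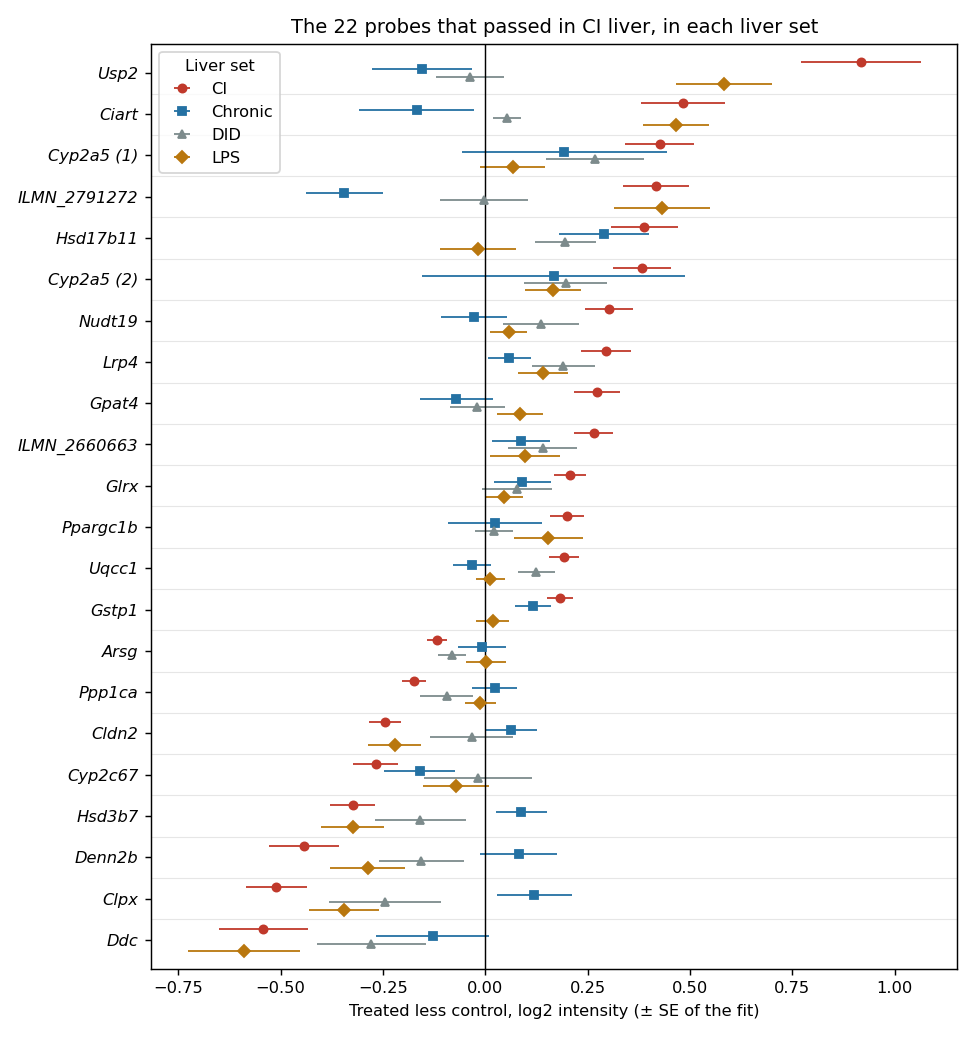
Treated less control difference in log2 intensity (± SE of the fit) of the 22 probes that passed in CI liver, in the CI, Chronic, DID and LPS livers; Gstp1 had no values in DID, and the probes of Cyp2a5 are numbered. Usp2 is at 0.92 in CI, -0.15 in Chronic, -0.04 in DID and 0.58 in LPS liver.

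For cholesterol synthesis the other treatments gave smaller medians. In Chronic liver the median of 17 measured genes was -0.13 with 2 DE and lower, in DID liver that of 18 was -0.01 with 0 DE, and in LPS liver that of 18 was -0.03 with 1 DE and lower, against -0.38 with 14 in CI liver. No difference of a single gene from CI passed. At an unadjusted p under 0.05, 3 of 17 genes differed from Chronic, 10 of 18 from DID and 6 of 18 from LPS, where 8.53%, 5.04% and 4.69% of all probes differed at that level, 4.10%, 2.67% and 2.52% being lower in CI. Hmgcs1 was at -0.16 in Chronic, -0.05 in DID and -0.18 in LPS liver. For fatty acid oxidation the order was another one, with 18 of 27 genes DE and higher in Chronic liver (6.31% of all probes there), 10 of 27 in DID (2.99%) and 1 of 28 in LPS (6.21%), beside 7 of 28 in CI liver (5.23%). The clock outputs had 9 of 13 DE and higher in LPS liver, against the same 6.21%, with a median of 0.34. In Chronic liver 2 of 13 were DE and higher and 2 DE and lower (6.31% and 5.80% of all probes).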

How the data were processed

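Total RNA of lower liver lobes was labelled and hybridised by the authors to Illumina MouseRef-8 v2 bead arrays, 1 mouse per array. The deposited values are log2 intensities that the authors made with variance stabilization and quantile normalization in lumi (version not given in the sources used here), separately for each tissue and treatment, after keeping probes detected on most arrays and blanking single outlying values by Grubbs' test. These steps narrow the spread within a group, and levels from different sets are not comparable, so only differences within a set were compared. The deposited tables of raw bead signals (159 columns over all sets) were not used, since their column names match no title or description of a sample.

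Groups came from the sample labels. Of 13983 probes with values in the table, 13181 carried 1 gene symbol and 802 none. A linear model of CI-treated less CI-control (10 mice each) was fitted to the 9561 probes with values in CI liver with limma 3.58.1 in R 4.3.3, with empirical Bayes variances and Benjamini-Hochberg adjustment over all probes. Differences between treatments came from 1 model over the 80 liver arrays in 8 groups. The SE given is that of the moderated fit. The named genes were, by rule, every probe that passed, every measured clock gene, up to 4 members of each other list with the smallest p, and up to 5 probes for each difference between treatments. Any other gene named was chosen after its values were seen. In lists, each gene counts by its brightest probe, while the shares of all probes also count dim probes and several probes of a gene. The members and the 22 pathway and 12 marker lists were chosen with earlier results of these data known. Tables were handled in Python 3.11.15 with numpy 2.4.6 and pandas 2.3.3, and the fit was tested on simulated data. The study's methods state that groups were balanced over the beadchips. Since positions are not given in the sources used here, no chip term could be fitted. Sequences are from RefSeq (GRCm38.p6).

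The alternatives were probes without blanks, repeated quantile normalization, median centring, leaving out dim probes, another prior, array weights, the replicate number as a block, a single fit over all livers and each mouse left out. The number of arrays limits the precision: the median SE of a difference was 0.0421.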

Additional observations from a re-analysis of the deposited data

Results flagged for a closer look

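Some mice lay far from the rest of their group in a gene named in the text or fitted as a list member. For Lrp4, CI mouse 9 read 9.435, where the next of the 9 CI mice with a value read 9.268. For Tef, water mouse 1 read 10.23 and the next of 9 read 10.04. For Hsd11b1, a member of the glucocorticoid list which regenerates active glucocorticoid, water mouse 6 read 13.99 and the next of 10 read 14.22. These were 3 of the 186 groups checked. Chance flags about 1 in 20 groups of values from which nothing was removed, and here outlying values had already been blanked.

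Other results stood out because the CI change differed from that of another ethanol schedule. Against continuous ethanol the difference was 1.071 for Usp2, 0.7606 for ILMN_2791272, 0.6512 for Ciart and -0.6303 for Clpx, each with an adjusted p under 0.05 in the fit over the 80 liver arrays. Against drinking in the dark it was 0.9556 for Usp2. Each schedule had its own control mice, the sets were normalized apart, and the CI experiment ran the longest of the ethanol experiments. The DID mice also started younger, drank less in total and were killed in their dark phase.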

How the results depend on the processing

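The number of probes that passed (22) was 9 among probes with no blank value, where 11 of the 22 could be tested and 9 passed, 8 with the replicate block, of which 3 were shared, 14 in the fit over all liver arrays (7 shared), 35 without the dimmest probes, 40 with an intensity trend and robust prior and 48 with array weights. Apart from the test of fewer probes, the cause was not tested. With single mice left out it ran from 6 to 89, namely 6, 7, 10 and 9 without water mice 2, 3, 6 and 7, 6, 8, 8, 6 and 7 without CI mice 4, 6, 7, 8 and 10, and 89 without CI mouse 2. The replicate numbers did not pair the mice: same-numbered deviations correlated between -0.293 and 0.0824, 0 of 10 pairs above 0.1, and 0 CI mice correlated best with their own number. Differences from Chronic (17) were 5 among probes with no blank value, those from DID (1) were 0, with 443 at an unadjusted p under 0.05 over all probes, and those from LPS (7) were 3, or 4 with the replicate block. The cholesterol list had 11 to 14 DE genes under the alternatives other than leaving out mice (10 to 16), which need not be the same genes. Usp2 passed in all 8 alternatives and Clpx in the 7 that could test it. Of those that could test them, Hsd3b7 passed in 6 of 8, Cldn2 in 6 of 7, Ppp1ca in 4 of 7 and Gstp1 in 5 of 6. The adjusted p under these alternatives reached 0.631 and 0.378 for the 2 Cyp2a5 probes, 0.483 for Ppargc1b, 0.378 for Cyp2c67 and 0.372 for Arsg. Nfil3 reversed to -0.0046 with array weights. With mice left out Nfil3 ran from -0.039 to 0.071, Bhlhe40 from -0.034 to 0.084 and Lpin1 from -0.026 to 0.056, so their direction is not settled. By a two-sided permutation test of single probes (100000 resamples) p was 7e-05 for Usp2, 6e-05 for Clpx, 2e-05 for Ppp1ca and 4.2e-04 for Ciart.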

Other observations

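A further 19 probes had an adjusted p between 0.05 and 0.06. Besides second probes of genes that passed, they included Gne, which starts sialic acid synthesis, at 0.25 ± 0.05 with 8 of 10 CI mice above the water range, Ppat, the first enzyme of purine synthesis, at 0.22 ± 0.05, and the vasopressin receptor Avpr1a at -0.22 ± 0.05. Fam25c, which has no well known role, ran from 10.73 to 11.17 in water mice and from 10.12 to 10.92 in CI mice, and 6 of 10 CI mice lay below every water mouse (-0.43 ± 0.09).

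Some genes varied among mice more than they differed between groups. Bhmt, which remethylates homocysteine from betaine, ran from 9.54 to 11.63 in water mice and from 9.30 to 11.15 in CI mice (-0.55 ± 0.27, adjusted p = 0.49). Gadd45g, a stress-induced gene, was at -0.52 ± 0.23 (adjusted p = 0.425) with a water range of 8.86 to 10.95, while Cebpb, a transcription factor of the acute response, was at 0.22 ± 0.09 with a water range of 10.93 to 11.69. Alas1, which starts heme synthesis and cycles with the clock, was at 0.42 ± 0.27 over a water range of 12.39 to 14.77. The Kupffer cell genes moved together from mouse to mouse, with a mean correlation of 0.691 over 45 pairs after group means were removed, as did the one-carbon genes with 0.478 over 105 pairs. These are descriptions over the same 20 arrays, with no test.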
